A study of Mus spretus with 19 samples.

Results

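The liver makes much of the body's cholesterol and decides how much is taken up, stored, secreted or excreted, and 32 genes of these tasks were followed here in livers of wild mice. The genes were chosen by symbol as members of cholesterol synthesis, sterol sensing, transport and storage inside the cell, and uptake and export. All 32 were on the array and passed the filter on dim probes, out of 16346 genes tested, and all were well above background on all 19 arrays.

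The animals were male Algerian mice (Mus spretus) captured at 5 sites in southwest Spain, and no laboratory treatment or allele was involved. Polluted ground was represented by phosphogypsum stacks (PS), the waste heaps of fertilizer production, and by the lower (DR1), medium (DR4) and upper (DR6) course of the Domingo Rubio stream. The Santa Olalla lagoon (SOL) was the unpolluted site. For each site RNA of 9 livers was pooled and hybridized to 4 arrays, or 3 for DR6. The arrays of a site are thus technical repeats of 1 pool, and the p-values set a change against labelling and hybridization noise only; variation between mice is not in them. Age and diet of the mice are not given in the labels. The probes were designed for Mus musculus, and each site had a slide and a scan of its own, so a difference between sites and a difference between slides cannot be told apart.

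Per array, 52% to 61.5% of gene spots passed the scanner's background test. Across genes, correlations were 0.98 to 0.997 within a site and 0.952 to 0.984 between sites. Markers of hepatocytes were bright at every site and none of the 6 measured was called different between a polluted site and SOL. A level is given below as a multiple of the 75th percentile of the array it was read on, and levels of different genes are not compared, since each probe has its own brightness. A change is a difference of means on the log2 scale, printed with its standard error (SE) where one is given. It was called when the adjusted p of limma was under 0.05 and the change was at least 1, which is 2-fold. As in any tissue sample, fewer cells of a type and less RNA per cell cannot be told apart.

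Cholesterol is built from acetyl-CoA in a long chain of reactions. The mevalonate steps give the isoprenoid farnesyl diphosphate, which is joined in pairs to squalene, squalene is closed to the ring of lanosterol, and lanosterol is trimmed to cholesterol in the endoplasmic reticulum. The transcription factor SREBP2, the product of Srebf2, switches on the genes of this chain when membranes hold little sterol. Scap escorts it to the Golgi for processing and the Insig proteins hold it back when sterol is plentiful. Sterol that is not needed is esterified for storage or leaves through ABC transporters.

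The probes that read the members are 60 bases long. Of the 57 kept probes of the members, 49 have a frame with no stop codon over the whole probe. A sequence this short can have such a frame by chance, so it does not mark a probe as coding. In the files' mm8 coordinates 11 span more genome than their own length, as a probe across a splice junction does. How closely a probe identifies its transcript was not tested. The 10 probes with both features are called exon-crossing below, as a label only. The following 7 of them are shown, and those of Stard4 and Nsdhl are not printed. The first 4 belong to genes that were lower at PS, the next pair to genes that were lower at DR1 and DR4, and the last to a gene whose 2 probes did not give the same answer. They lie at chr3:89180817-89180957 (minus strand) for Fdps, chr14:62101042-62105282 (minus strand) for Fdft1, chr5:114716983-114719930 (plus strand) for Mvk, chr5:4098039-4098445 (minus strand) for Cyp51, chr15:101989129-101990046 (plus strand) for Soat2, chr9:45992573-45993316 (plus strand) for Apoa4 and chr5:28405393-28405865 (plus strand) for Insig1. The Cyp51 and Insig1 probes are not the brightest of their gene and serve as a second reading.
Fdps: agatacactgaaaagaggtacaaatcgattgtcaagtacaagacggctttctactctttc
Fdft1: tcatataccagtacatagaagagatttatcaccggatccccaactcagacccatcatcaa
Mvk: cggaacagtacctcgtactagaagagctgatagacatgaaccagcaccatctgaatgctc
Cyp51: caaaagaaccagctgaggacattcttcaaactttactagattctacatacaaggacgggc
Soat2: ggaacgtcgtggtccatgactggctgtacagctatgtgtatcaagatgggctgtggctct
Apoa4: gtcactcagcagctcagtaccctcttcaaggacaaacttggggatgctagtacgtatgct
Insig1: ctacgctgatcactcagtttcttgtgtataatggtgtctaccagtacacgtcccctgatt

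The first question was how PS compared with SOL. Enzymes of cholesterol synthesis were lower at PS from the first mevalonate steps to the last reduction. Of the 32 members 16 fell and 0 rose, where 2.18% of all genes tested fell and 2.23% rose (4.42% together). Of the 19 synthesis enzymes 15 fell, with a median change over all 19 of −2.00, and the other 13 members had a median of −0.17. The median over all genes was −0.01.

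**Figure D1:**
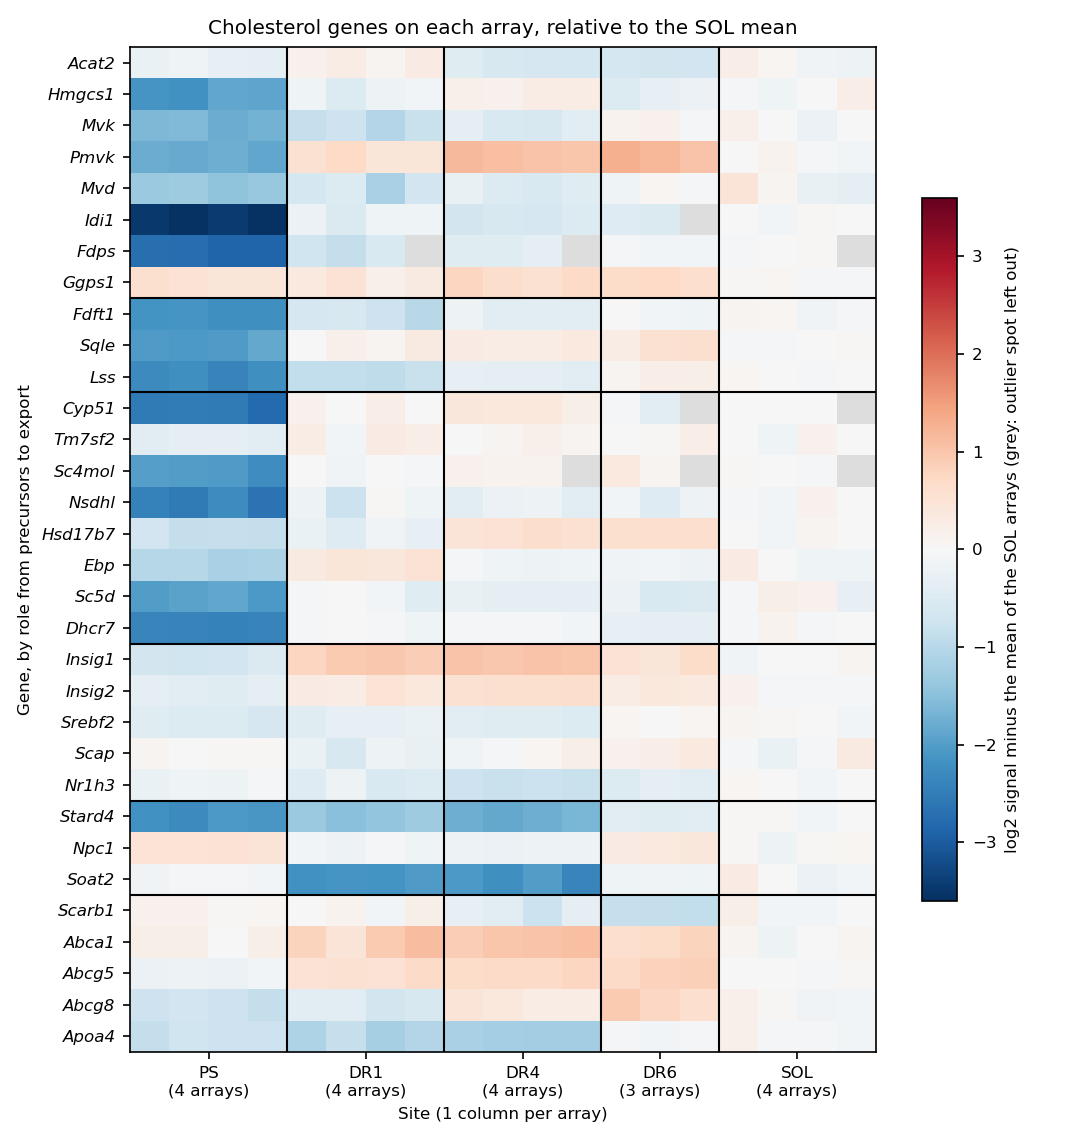
Each row is 1 of the 32 genes, ordered from precursors to export and divided by role, and each column is 1 of the 19 arrays in the order PS, DR1, DR4, DR6, SOL. Colour gives the log2 signal minus the mean of the SOL arrays, blue for lower and red for higher, and grey marks outlier spots that were left out. Most rows of the synthesis enzymes are blue on the 4 PS arrays, with Idi1 the darkest at −3.51, and most are pale on the stream arrays. Exceptions are Ggps1, which is higher at PS (0.49), and Pmvk, which is higher at DR4 (1.07) and DR6 (1.16). Acat2 (−0.26) and Tm7sf2 (−0.37) are only slightly lower at PS.

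The deepest fall was in Idi1, isopentenyl diphosphate isomerase, which interconverts the building blocks of all isoprenoids. Its level on the PS arrays was 7.33, 6.90, 7.38 and 6.91, against 82.4, 76.3, 83.7 and 82.3 on the SOL arrays. The lowest SOL array thus stood far above the highest PS array, and the fold was 11.4 (change −3.51, SE 0.0744, adjusted p = 1.48e-14). Its stream arrays gave 51.8 to 73.4, between PS and SOL, with 1 DR6 array left out because its spot was marked as an outlier. The files place this probe at chr2:53516550-53516609 in mm8, and the Hmgcs1 probes on an unplaced piece (13_random). No genome was used here, so whether the probes of these 2 genes read the genes themselves or other loci was not tested. A second, dimmer Idi1 probe gave −3.79. The files place it close to the first, at chr2:53518541-53518600, so the same doubt about the locus holds for it.

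Fdps, farnesyl diphosphate synthase, makes the last intermediate that sterols share with the other isoprenoids. Its level was 8.56, 8.31, 7.59 and 7.56 on the PS arrays, against 54.7, 55.0 and 58.1 on the SOL arrays, where the 4th spot was an outlier. The PS values were all below the SOL values and below those of the stream, which ran from 30.7 to 52.8 with 1 array each of DR1 and DR4 left out. The change was −2.81 (SE 0.0756, adjusted p = 3.63e-12). A second Fdps probe, dim and designed on another transcript record, gave −0.87, and the call is lost when both probes are averaged with whatever spots remain (−0.97, adjusted p = 0.434). On that reading the SOL array with the missing bright spot is represented by the dim probe alone, and a mean over arrays with both probes, an alternative added after seeing the data, kept the call (−1.85).

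Further upstream, the mevalonate steps fell almost as a chain. Hmgcs1, which condenses acetoacetyl-CoA to HMG-CoA, gave 20.6 to 25.4 at PS against 83.9 to 111 at SOL, a change of −2.03 (SE 0.105). Mvk and Pmvk, the kinases that phosphorylate mevalonate in turn, changed by −1.68 (SE 0.0892) and −1.80 (SE 0.076). Mvd, the decarboxylase that follows, changed by −1.36 (SE 0.157), and its call is lost under normexp background correction with quantile scaling (−0.91). At both ends of this stretch were 2 enzymes that were not called. Acat2, the thiolase that makes acetoacetyl-CoA (not the sterol esterifying enzyme of similar name), gave 49.6 to 56.1 at PS against 55.2 to 74.1 at SOL, overlapping, with a change of −0.26. Ggps1, which uses farnesyl diphosphate for the longer isoprenoid of protein prenylation rather than for sterol, gave 1.07 to 1.19 at PS against 0.756 to 0.835 at SOL, without overlap and in the other direction (0.49).

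All 3 enzymes that carry farnesyl diphosphate to lanosterol fell. Fdft1, squalene synthase, commits the pathway to sterols and had levels of 3.01, 3.1, 2.92 and 2.88 at PS against 14.3, 14.1, 12.2 and 13.1 at SOL, a change of −2.17 (SE 0.0853). Sqle, squalene epoxidase, a known control point of flux, changed by −2.00 (SE 0.0763). Lss, lanosterol synthase, which closes the ring, gave 1.25, 1.34, 1.17 and 1.34 at PS against 6.48, 6.21, 5.87 and 6.09 at SOL. For Lss the groups were far apart and the change was −2.28 (SE 0.0552, adjusted p = 1.50e-14).

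Of the 8 enzymes that turn lanosterol into cholesterol, 6 fell. Cyp51, which removes the first methyl group of lanosterol, gave 3.56, 3.6, 3.55 and 2.97 at PS against 20.4, 20.5 and 20.9 at SOL, where 1 outlier spot was left out. The 4th PS array was the lowest, and all PS values lay far below those of SOL (−2.60, SE 0.0936, adjusted p = 2.25e-11). The exon-crossing Cyp51 probe printed above gave −2.76. Nsdhl, a dehydrogenase that removes further methyl groups, gave 0.719, 0.666, 0.805 and 0.613 at PS against 3.67, 3.64, 4.27 and 3.90 at SOL (−2.47, SE 0.141, adjusted p = 7.10e-10). Both groups were tight and lay apart.

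Dhcr7 catalyses the reduction of 7-dehydrocholesterol to cholesterol. Its level was 10.3, 10.1, 9.92 and 10.2 at PS against 51.2, 58.2, 52.6 and 53.3 at SOL, 5.32-fold lower at PS (−2.41, SE 0.0487, adjusted p = 2.34e-15). Its PS arrays differed little from each other and the groups did not overlap. Between these steps, the sterol methyl oxidase Sc4mol changed by −2.07 (SE 0.0744, with 1 SOL array left out), the desaturase Sc5d by −1.97 (SE 0.112) and the isomerase Ebp by −1.08 (SE 0.0829). Ebp is the member closest to the threshold: its change is −0.99 without SOL replicate 1 and −0.98 under normexp with quantile scaling. The sterol reductase Tm7sf2 (−0.37) and the ketoreductase Hsd17b7 (−0.81) were not called, although their PS arrays lay below all SOL arrays, at 81.6 to 84.4 against 97.0 to 120 for Tm7sf2 and 8.82 to 9.92 against 15.1 to 17.1 for Hsd17b7.

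**Figure D2:**
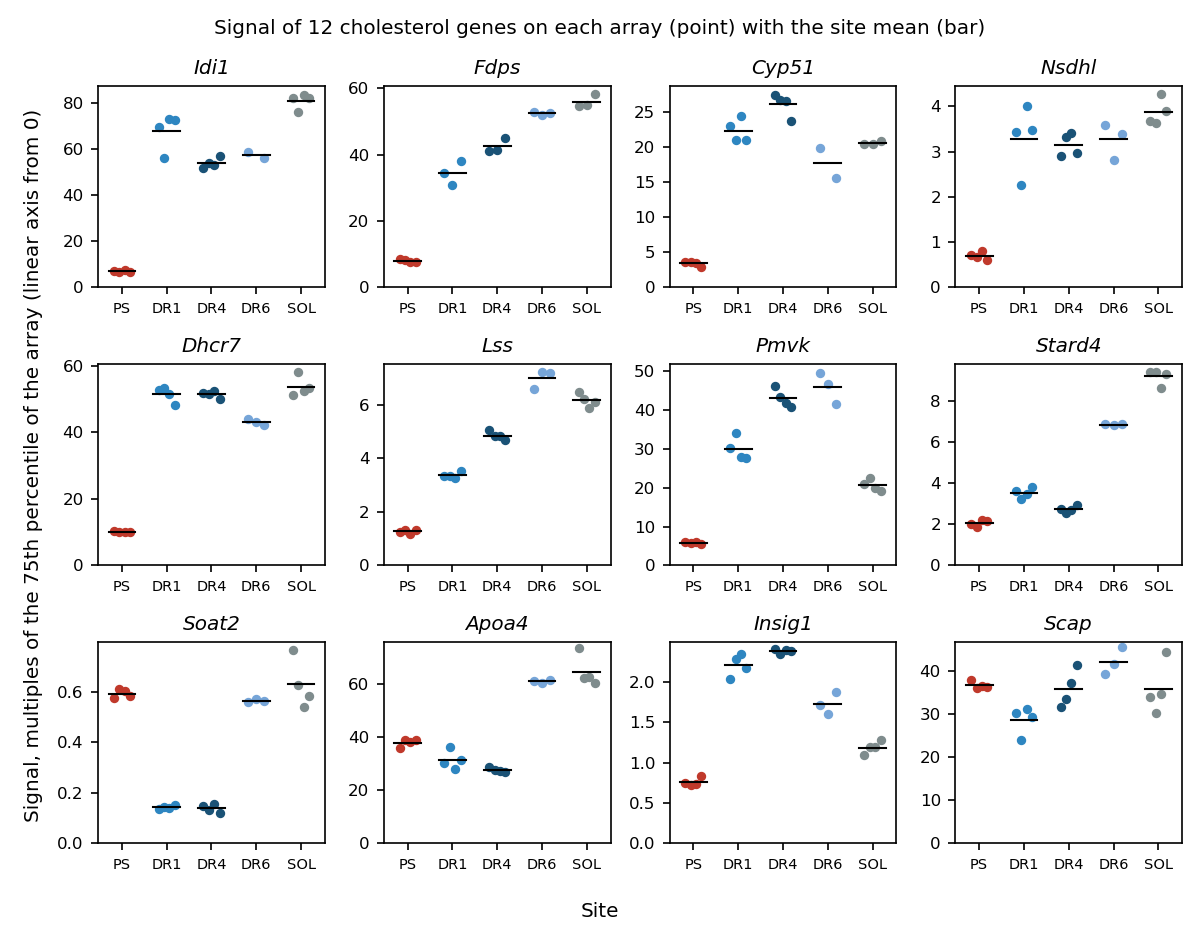
Each panel shows the level of 1 gene on each array (points) and the site mean (bar) on a linear axis from 0, for PS, DR1, DR4, DR6 and SOL from left to right; outlier spots are left out. The first 6 genes are lowest at PS, and some also lie below SOL in the stream, as Lss does at DR1 (mean 3.37 against 6.16). Pmvk is low at PS and high at DR4 and DR6. Soat2 is low at DR1 and DR4, with means of 0.143 and 0.139 against 0.628 at SOL.

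Only 1 of the 13 members outside synthesis was called between PS and SOL. Stard4, which carries cholesterol between membranes and is itself known as a gene that SREBP2 switches on, gave 2.02, 1.88, 2.19 and 2.16 at PS against 9.41, 9.40, 8.63 and 9.28 at SOL (−2.16, SE 0.0639, adjusted p = 1.57e-13). Its PS arrays lay well below every SOL array, and its other probes gave −2.77 and −2.44. The sterol sensing genes were not called: Srebf2 changed by −0.50, Insig1 by −0.64, Insig2 by −0.38, and Nr1h3, the sterol-activated receptor LXR alpha, by −0.16. The members with the smallest changes were Scap, Soat2 and Scarb1. Scap, the escort protein, gave 37.8, 36.1, 36.4 and 36.2 at PS against 33.9, 30.3, 34.7 and 44.4 at SOL (0.05, SE 0.112, adjusted p = 0.789). Scarb1, the receptor that takes up cholesterol from HDL, gave 9.39, 9.40, 8.60 and 8.78 at PS against 9.70, 7.91, 7.79 and 8.4 at SOL (0.10, SE 0.0994, adjusted p = 0.467). In both the SOL arrays enclosed those of PS. Npc1, which releases sterol from lysosomes, changed by 0.49. The exporter Abca1 changed by 0.15, the paired biliary exporters Abcg5 and Abcg8 by −0.17 and −0.76, and the apolipoprotein Apoa4 by −0.76.

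For 2 of the sensing genes the outcome depended on the probe. Insig1 holds the SREBP escort in the endoplasmic reticulum and is known to be switched on by SREBP2. Its brightest probe gave −0.64 at PS and the exon-crossing probe printed above −1.51, so that the mean of both would be called (−1.08). For Srebf2 the brightest probe gave −0.50, and the 2 dimmer probes designed on its RefSeq transcript gave −1.0 and −1.47, the last above background on 7 arrays only. Over the 16 called members, 12 had further kept probes. All 17 of these gave a change of the same sign as the brightest probe, and 14 passed the same limits. The other 3 were the dim Fdps probe, a dim Fdft1 probe (−0.43) and an Sc5d probe (−0.94).

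**Figure D3:**
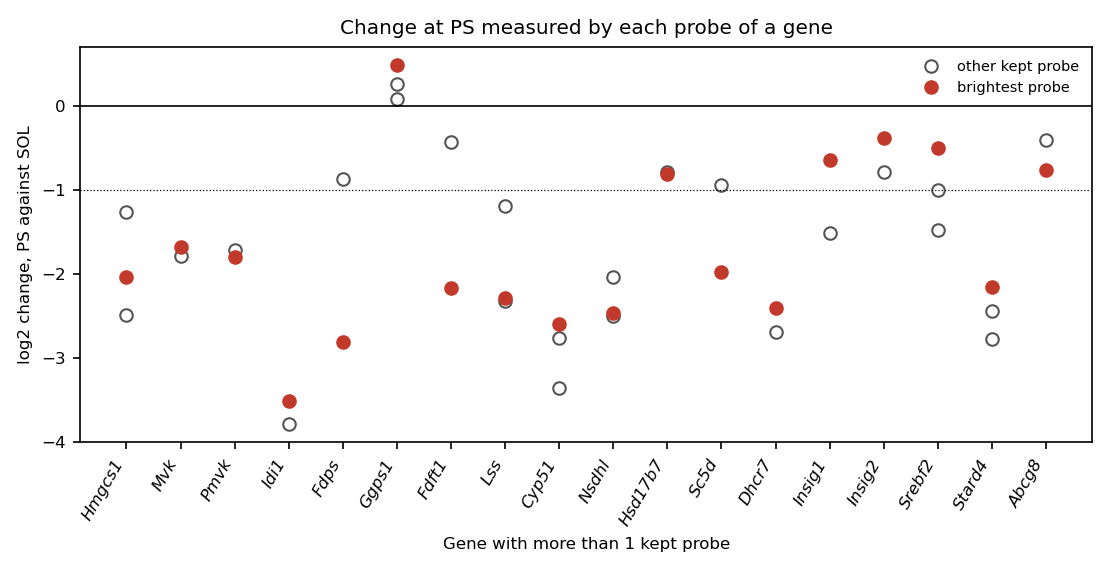
The log2 change at PS against SOL is shown for every kept probe of the 18 genes that have more than 1: the brightest probe (filled) and the others (open), with a dotted line at −1. All probes of genes with a called brightest probe lie below 0, and in Insig1 and Srebf2 the open points lie below the filled one.

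The stream sites were compared with the lagoon next. By their brightest probes none of the 19 synthesis enzymes fell at DR1, DR4 or DR6, and their medians there were −0.15, −0.13 and −0.08. At DR1 5 of the synthesis enzymes, picked out after their values were seen, had changes of −0.71 to −0.87, short of the limit. They were Mvk (−0.86), Mvd (−0.75), Fdps (−0.71, with 1 array of each site left out), Fdft1 (−0.74) and Lss (−0.87). Under normexp with quantile scaling Lss is called lower there (−1.01, adjusted p = 1.32e-08). The other kept probes of these genes did not all go the same way at DR1. The dim Fdps and Fdft1 probes gave 0.71 and 1.01, those of Lss 0.19 and −0.99, and that of Mvk −0.58. With the mean of all kept probes Fdps changes by 0.18 and Fdft1 by 0.13. Other probes also differed from the brightest at the upper sites. A dim Hmgcs1 probe was called lower at DR4 (−1.52), where the brightest gave 0.22. The dim Fdft1 probe, above background on 9 arrays only, was called higher at DR6 (1.66), where the brightest gave −0.08. At DR1 3 members fell and 0 rose, where 2.55% of all genes fell and 3.53% rose (6.08% together). At DR4 3 fell and 3 rose, where 5.1% of all genes fell and 5.43% rose (10.5% together). At DR6 0 fell and 1 rose, where 2.28% of all genes fell and 4.67% rose (6.95% together). Each of these counts rests on 3 members or fewer, which are described one by one.

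**Figure D4:**
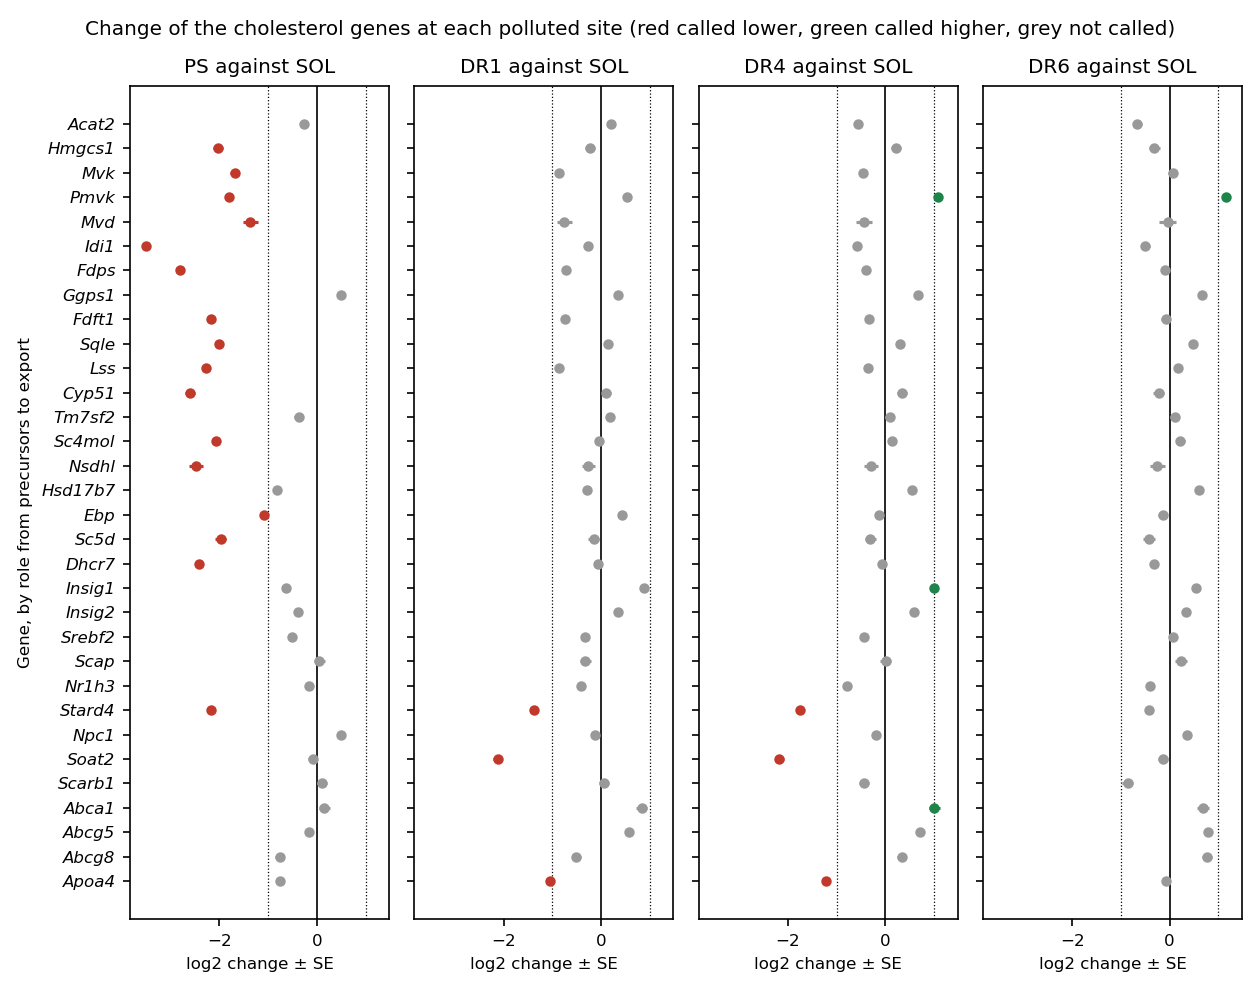
The log2 change with its SE is shown for each of the 32 genes at PS, DR1, DR4 and DR6 against SOL, from precursors at the top to export at the bottom; red marks called lower, green called higher, grey not called, and dotted lines stand at −1 and 1. The red points of the upper rows appear in the PS panel only, and those of the lower rows at Stard4, Soat2 and Apoa4.

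Soat2, the liver and gut enzyme that esterifies cholesterol for storage and for lipoproteins, had the largest change at the lower and medium stream. Its level was 0.138, 0.143, 0.140 and 0.153 at DR1, against 0.764, 0.627, 0.541 and 0.581 at SOL. At DR4 it was 0.149, 0.134, 0.154 and 0.121. These 8 stream arrays lay below all arrays of the other sites, at 0.573, 0.609, 0.601 and 0.584 for PS and 0.558, 0.571 and 0.564 for DR6, which overlapped with SOL. The change was −2.12 at DR1 (SE 0.0905, adjusted p = 1.67e-11) and −2.17 at DR4 (SE 0.0905, adjusted p = 4.04e-12), and −0.08 at PS and −0.14 at DR6. The gene was read by 1 dim probe, and under normexp with quantile scaling, which adds an offset of 50 to every signal, its changes are −0.87 and −0.86 and both calls are lost.

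Stard4 fell at DR1 and DR4 as well. It gave 3.61, 3.22, 3.45 and 3.8 at DR1 and 2.73, 2.57, 2.70 and 2.95 at DR4, against the 8.63 to 9.41 of SOL, with changes of −1.38 (SE 0.0639, adjusted p = 4.32e-11) and −1.75 (SE 0.0639, adjusted p = 6.72e-13). At DR6 the level was 6.86, 6.81 and 6.85 (−0.42, not called). The 2 exon-crossing Stard4 probes gave smaller values, −0.79 and −0.56 at DR1 and −0.49 and −0.48 at DR4, and with the mean of all probes the change is −0.91 at each site and not called. At PS all 3 probes passed the threshold.

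Apoa4, an apolipoprotein of triglyceride-rich particles and HDL, gave 30.2, 36.5, 28.2 and 31.4 at DR1 and 28.9, 27.7, 27.3 and 27.1 at DR4, against 73.7, 62.4, 62.7 and 60.4 at SOL. All 8 stream arrays lay below SOL, and the changes were −1.04 (SE 0.0746, adjusted p = 1.07e-08) and −1.22 (SE 0.0746, adjusted p = 5.68e-10). Its PS level was 35.9 to 39.2, also below SOL, and its DR6 level was 60.5 to 61.8, within the range of SOL. The DR1 call is lost without SOL replicate 1 (−0.98), without DR1 replicate 3 (−0.99) and under normexp with quantile scaling (−0.99 at DR1, −0.95 at DR4).

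Pmvk, phosphomevalonate kinase, was the only member called in both directions against SOL. Its level was 6.01, 5.87, 6.08 and 5.59 at PS, 30.1, 34.0, 27.8 and 27.7 at DR1, 46.1, 43.4, 41.8 and 40.7 at DR4, 49.6, 46.6 and 41.5 at DR6, and 20.9, 22.4, 19.8 and 19.2 at SOL. The PS arrays were the lowest and every stream array lay above every SOL array. It rose by 1.07 at DR4 (SE 0.076, adjusted p = 3.83e-09) and by 1.16 at DR6 (SE 0.082, adjusted p = 9.48e-09), where it was the only member called, and changed by 0.54 at DR1. A second Pmvk probe, next to the first in the gene, gave −1.71 at PS, 1.01 at DR4 and 1.31 at DR6.

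Insig1 and Abca1 rose at DR4, both close to the threshold. Insig1 gave 2.41, 2.34, 2.40 and 2.38 at DR4 against 1.09, 1.19, 1.19 and 1.28 at SOL (1.00, SE 0.0659, adjusted p = 1.32e-09), and 0.752, 0.728, 0.739 and 0.834 at PS. Its DR1 level of 2.04, 2.28, 2.34 and 2.17 and its DR6 level of 1.71, 1.60 and 1.87 also lay above SOL, with changes of 0.89 and 0.54 that were not called. The exon-crossing Insig1 probe gave 0.06 at DR4, and the mean of both probes 0.53, which is not called; without SOL replicate 1 the change is 0.96, and without DR4 replicate 1 it lies just under the limit. Abca1, which loads cholesterol onto HDL, gave 13.5 to 15.4 at DR4 against 6.41 to 7.79 at SOL (1.00, SE 0.112), and 0.94 to 0.99 without SOL replicate 2, DR4 replicate 3 or DR4 replicate 4, when it is not called.

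Other members outside synthesis moved in the stream by less than the limit. Abcg5 changed by 0.57, 0.70 and 0.79 at DR1, DR4 and DR6, and Abcg8, its neighbour on chromosome 17 and its partner in the exporter, by −0.51, 0.34 and 0.77. Nr1h3 changed by −0.42, −0.78 and −0.41. Scarb1 changed by −0.86 at DR6, the largest fall of a member there, with levels of 4.54 to 4.71 against 7.79 to 9.70 at SOL.

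Since PS and the stream sites share the SOL arrays as their control, PS was also set directly against each stream site. Against DR1 14 members fell and 1 rose, where 3.72% of all genes fell and 2.64% rose (6.36% together). Against DR4 16 fell and 1 rose, where 4.64% of all genes fell and 4.32% rose (8.96% together). Against DR6 18 fell and 0 rose, where 4.79% of all genes fell and 2.51% rose (7.3% together). The synthesis enzymes made up 13, 14 and 15 of those that fell, with medians over all 19 of −1.80, −1.93 and −2.09. Idi1 changed by −3.25, −2.92 and −3.01 at PS against DR1, DR4 and DR6, and Dhcr7 by −2.35, −2.35 and −2.09. Pmvk, higher in the stream than at SOL, was 5.06-fold, 7.3-fold and 7.78-fold lower at PS.

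In these direct comparisons 12 members were lower at PS than at each of the other 4 sites, and all 12 were synthesis enzymes: Hmgcs1, Pmvk, Idi1, Fdps, Fdft1, Sqle, Lss, Cyp51, Sc4mol, Nsdhl, Sc5d and Dhcr7. The same 12 had a PS mean at least 1 on the log2 scale below the mean of every other pool. This limit is already part of a call, so it gives a share over all genes and is not a second test. In all, 57 genes, 0.349% of those measured at all sites, stood this far below. The 12 members are 37.5% of the members and 21.1% of the 57 genes. No member stood this far below the rest at DR1, DR4, DR6 or SOL, where 0.251%, 0.63%, 0.22% and 0.594% of all genes did. None stood this far above the rest at PS, DR1, DR4, DR6 or SOL, where 0.318%, 0.263%, 0.459%, 0.471% and 0.177% of all genes did. For Cyp51 the other 4 pools lay within 0.56 of each other and PS differed from the lowest of them by −2.37. For Sc4mol they lay within 0.26 and PS differed by −2.03. In all alternatives tried 9 of the 12 kept their calls against all 4 sites. The exceptions were Lss (−0.96 against DR1 under normexp with quantile scaling), Sc5d (−0.95 against DR4 with the mean of all probes) and Fdps. Other kept probes of the members called at PS were called alike in 15 of 15 cases against DR1. Against DR4 15 of 18 were, and against DR6 17 of 20. Those not called were probes of Fdps, Hmgcs1 and Sc5d. Against DR4 they gave −0.12, 0.26 and −0.24, so the Hmgcs1 probe went the other way.

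Outside synthesis, 4 members differed between PS and the stream. Soat2 rose at PS by 2.04 against DR1 and 2.09 against DR4 (SE 0.0905 each), and by 0.88 in both under normexp with quantile scaling, which is not called. Insig1 fell by 1.53, 1.64 and 1.18 against DR1, DR4 and DR6, and here its second probe was called as well (−1.84, −1.58 and −1.63). Its fall against DR6 is −0.85 under normexp with quantile scaling. Stard4 fell by 1.73 against DR6. Against DR1 and DR4 its brightest probe gave −0.77 and −0.41, not called, whereas its other probes were called in both, at −1.98 and −1.89 against DR1 and with −2.29 as the larger of the changes against DR4, and the mean of all probes is −1.55 against each and called. Abcg8 fell by 1.10 against DR4 and by 1.53 against DR6, while Abcg5 changed by −0.88 and −0.97, just inside the limit.

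With the 5 pool means as units, the mean of the 4 polluted pools was set against the SOL pool. No gene was called by limma (0 of 16343, and 665 at an unadjusted p under 0.05, no member among them). The member with the largest change was Stard4, at −1.43 (SE 0.608, adjusted p = 0.998), lower at PS, DR1 and DR4. For the synthesis enzymes this comparison averages 1 low pool with 3 that were close to SOL, as in Idi1 with −1.21 (SE 1.2). The fit has 1 SOL pool and assumes that it varies like the others.

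Genes beside the members were read from lists of related pathways, given here by their counts. Fatty acid synthesis, under the related factor SREBP1, fell in 8 of 16 measured genes at PS, with a median of −0.98, led by Thrsp (−2.27), Fasn (−1.82) and Fads2 (−1.37). At DR1 2 of the 16 fell and at DR4 5, with medians of −0.53 and −0.70, and at DR6 0 fell and 2 rose, the desaturase Scd1 by 3.68 and Acacb by 1.21. Fasn, fatty acid synthase, also fell at PS against DR1 (−1.01), DR4 (−1.20) and DR6 (−1.74). In all, 2, 1 and 5 of the 16 fell at PS against DR1, DR4 and DR6.

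The branches that use isoprenoids for other products, such as dolichol, ubiquinone and prenylated proteins, had 0 of 10 measured genes called at PS against SOL (median −0.15). The genes that process SREBP and degrade its partners had 0 of 9 called there (median 0.13). Of 12 further genes of sterol uptake and trafficking 1 fell at PS, Npc1l1 (−2.01), which takes up free sterol and in mice is known mainly from the gut. It also fell against DR1 (−2.02), DR4 (−1.70) and DR6 (−1.48). Of 14 genes of lipoprotein assembly 1 fell at PS, the endothelial lipase Lipg (−2.33).

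Of 12 genes of bile acid synthesis, the main route by which cholesterol is broken down, and its control, 2 were called at PS and the median was 0.25. Cyp8b1, which sets the share of cholic acid, rose by 1.36, and Nr0b2, a repressor that bile acids induce, by 1.10 (adjusted p = 0.046). Cyp8b1 rose at DR4 (1.68) and DR6 (2.37) too. At DR1 the called genes were Cyp7b1 (1.29) and Akr1d1 (1.20), and at DR4 Cyp7b1 (1.52) and the bile acid importer Slc10a1 (−1.90).

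**Figure D5:**
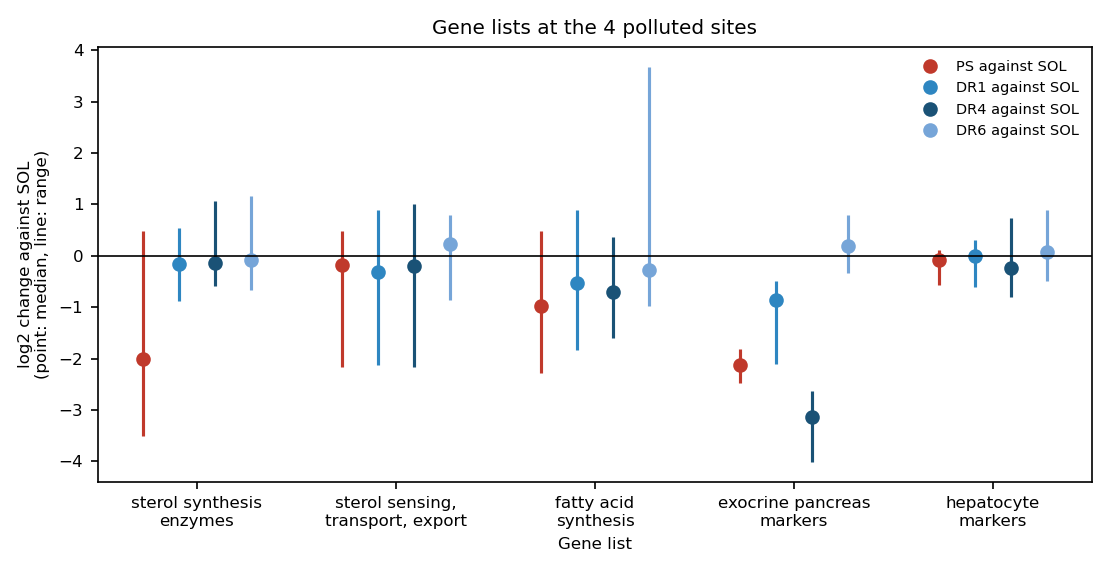
The median (point) and the range (line) of the log2 change against SOL are shown for 5 gene lists at PS, DR1, DR4 and DR6. The median of the 19 sterol synthesis enzymes is −2.00 at PS and near 0 at the 3 stream sites, the median of exocrine pancreas markers is −2.13 at PS and −3.13 at DR4, and that of hepatocyte markers is −0.09 at PS.

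Transcripts of another organ moved between the same pools. All 12 measured markers of exocrine pancreas, out of 17 listed, fell at PS (median −2.13), as did 3 of 12 at DR1 (median −0.86), 12 of 12 at DR4 (median −3.13) and 0 of 12 at DR6 (median 0.20). Their summed level was 293 to 295 at PS, 584 to 706 at DR1, 114 to 159 at DR4, 1430 to 1470 at DR6 and 1210 to 1310 at SOL. At PS against DR4 7 of the 12 markers rose and 14 synthesis enzymes fell; against DR1 9 of the 12 fell and against DR6 12 of 12. The 7 measured markers of gut epithelium, of 14 listed, had a summed level of 45.5 to 50.7 at PS, 50 to 62 at DR1, 23.8 to 27.3 at DR4, 35.6 to 39.5 at DR6 and 62.9 to 75.4 at SOL, with Cdx2 not well above background at 4 of the 5 sites. The gut also expresses Soat2 and Apoa4. Among markers of other liver cells, 0 of 7 Kupffer cell and 0 of 6 stellate cell genes were called at PS against SOL. Kupffer cell genes fell in 1 of 7 at DR1, 3 at DR4 (Marco −1.84) and 1 at DR6, and rose in 1, 3 and 1 of 7 at PS against DR1, DR4 and DR6. Stellate cell genes rose in 3 of 6 at DR1 (Lum 1.59), 0 at DR4 and 2 at DR6, and fell in 3, 0 and 3 of 6 at PS against DR1, DR4 and DR6. None of the 4 cholangiocyte genes was called in these comparisons. The part of all these transcripts in the changes of the members was not tested.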

How the data were processed

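Cy3-labelled RNA of 5 liver pools was measured on 19 one-colour Agilent arrays. The deposited scanner files give each spot's processed intensity on a linear scale. The submitters' processing notes name Agilent Feature Extraction 9.5.3.1 as the authors' software, and the arrays were not scaled to each other in these files. The mean spot intensity and local background intensity in the deposited files served an alternative only. A series-wide table that the authors deposited repeats this processed intensity, uncentred and rounded (largest relative difference 0.497%, column medians 9.72 to 24.8). The DR1 files use an older design file, so symbols and mm8 coordinates were taken from the newer one through the probe.

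After leaving out 1639 control spots of 45018, log2 signals were reduced by each array's 75th percentile (99.5 to 285.2 intensity units). Outlier spots were set missing, spots of a probe averaged, and probes kept when 3 or more arrays of some site had them well above background. Each gene was read by its brightest kept probe. limma 3.58.1 in R 4.3.3 fitted a mean per site to all arrays, with Benjamini-Hochberg adjustment over all genes and two-sided tests. On simulated data for PS against SOL (16003 genes), 94% of changes of 1.5 and 100% of changes of 3 on the log2 scale were recovered, with 1 false call. The simulated noise had the spread between arrays of a pool, so these figures hold for technical noise only. The number of arrays limits the precision of a pool's level, and with 1 pool per site variation between mice is not measured. The members, lists and comparisons of PS with the stream were chosen with earlier results of these data known. Arrays were printed for the 6 largest and 3 smallest changes at PS, the 3 largest called at each stream site, and members called in both directions; other members are given by range or change. Alternatives covered background correction, scaling, the deposited table, the dim-probe filter, the probe per gene, outlier spots, the samples in the fit, the replicate block and leaving out each array. Promoters were not used here.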

Additional observations from a re-analysis of the deposited data

Results flagged for a closer look

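Pmvk was lower than SOL at PS and higher at DR6, and the difference between these sites, tested directly, was −2.96 (SE 0.082, adjusted p = 4.27e-14).

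In 10 of 122 groups of 4 arrays, 8.20%, 1 array stood apart from the other 3 by the ratio of gap to range, past Dixon's limit for groups of that size. Chance gives about 1 in 20. At PS, replicate 4 was highest for Sqle (2.51, next 2.21, ratio 0.852) and lowest for Cyp51 (2.97, next 3.55, ratio 0.918). Replicate 3 of PS was lowest for Insig2 (49.1, next 51.5, ratio 0.919) and Abca1 (7.26, next 8.38, ratio 0.911), and replicate 1 highest for Scap (37.8, next 36.4, ratio 0.833). At DR1, replicate 2 was lowest for Tm7sf2 (99.2, next 127, ratio 0.861). At DR4, replicate 1 was highest for Fdft1 (11.7, next 10.3, ratio 0.878). At SOL, replicate 1 was highest for Insig2 (74.0, next 64.7, ratio 0.871), replicate 3 lowest for Stard4 (8.63, next 9.28, ratio 0.836) and replicate 2 lowest for Npc1 (1.70, next 1.99, ratio 0.874).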

How the results depend on the processing

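No called member changed direction in the alternatives run. Of the calls, 13 of 16 at PS against SOL held in every alternative, 0 of 3 at DR1, 1 of 6 at DR4 (Pmvk) and 1 of 1 at DR6, and 12 of 15, 12 of 17 and 15 of 18 at PS against DR1, DR4 and DR6. With normexp (offset 50) and quantile scaling, 1 member rose and 1 fell at DR4, and 0 rose at PS against DR1 and against DR4; calls lost there and not named above were Abca1 at DR4 (0.88), Insig1 at DR4 (0.91), Mvk (−0.93) and Abcg8 (−0.87) at PS against DR4, and Mvd at PS against DR6 (−0.90). With median scaling, 1 member rose at PS against DR6 (Scarb1, 1.13); that scaling moved the median of all genes by 0.17 there. With the mean of all kept probes, 1 member fell at DR6 (Idi1, −1.15). For Idi1 and Fdps that mean held fewer probes where a spot was missing, and taking it over complete arrays, an alternative chosen after seeing the data, restored the main calls of both. Other calls gained were Mvk at PS against DR1 (−1.01) and Srebf2 at PS against DR6 (−1.16) with the mean of all kept probes, Ebp and Insig2 at PS against DR4 (−1.09 each) with quantile scaling, and Abcg5 at PS against DR6 (−1.02) without DR6 replicate 1. Keeping outlier spots, also chosen later, using the deposited table, changing the dim-probe filter or fitting only the 2 sites compared changed no call of a member. Leaving out 1 array ended 8 calls and added 1 among 1728 values, and moved no count by over 1.5 times. Counts over all genes fell to 196 to 596 of 722 to 1722 under normexp, and to 390 to 908 in 6 comparisons when all arrays had to be well above background. Of 4192 member values compared, called or not, 34 changed sign, and all of these were uncalled. Their size was at most 0.74 in the main fit, and the largest in an alternative was 0.79 (Fdft1 at DR6).

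With array number as a replicate block, no call of a member changed: 0 rose and 16 fell at PS against SOL. The labels give the numbers no shared source, and they were not treated as pairs. Over 36 pairs of equal number the deviations correlated at −0.162 to 0.483 (median 0.0881, against −0.0342 for unequal numbers; 16 pairs over 0.1), and 11 of 19 arrays correlated best with their own number, a hint from the data and not from the design. Dim probes limit the smallest readable levels, and the arrays carry no spread between mice.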
